A study of Mus musculus with 8 samples.

Results

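The 10 genes described here encode platelet-derived growth factor (PDGF) and fibroblast growth factor (FGF) ligands and receptors that act while the alveolar walls form. They are the PDGF receptors Pdgfra and Pdgfrb, the ligand gene Pdgfa, the FGF ligand genes Fgf7, Fgf10 and Fgf18, and the receptor genes Fgfr1, Fgfr2, Fgfr3 and Fgfr4. They were chosen by name, and all 10 were found among the 43432 mouse Ensembl identifiers of a table of raw RNA sequencing counts. All 10 also passed the filter on low counts, as did 15422 genes of the table. The samples were lung myofibroblasts of mice on a C57BL/6 background at postnatal day 7. The wild-type group had 4 libraries (control 1 to control 4). The 4 others were labelled as transgenic, with constitutive Fra-2 expression (Fra-2 1 to Fra-2 4), and are called Fra-2-labelled libraries. The source field of these 4 also holds the word control beside Fra-2, so their labels do not fully match each other. Fra-2 is an AP-1 transcription factor encoded by Fosl2. The promoter that drives the transgene, the way the cells were isolated and whether each library came from its own animal are not stated in the labels. The p-values therefore measure the spread between these libraries, part of which may be technical.

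PDGF and FGF receptors are receptor tyrosine kinases, which pair up when a ligand binds and then signal through the RAS-MAPK and PI3K pathways. In the developing lung, PDGF-A from the epithelium acts on mesenchymal cells that carry the alpha receptor, and these cells become the elastin-producing myofibroblasts of the alveolar wall. FGF7 and FGF10 are made by the mesenchyme and act mainly on the epithelial splice form of Fgfr2, while FGF18 prefers the mesenchymal splice forms of FGF receptors and Fgfr3 and Fgfr4 are together needed for normal alveolar walls. Secreted FGFs need heparan sulphate chains to bind their receptors, so the enzymes that edit those chains belong to the same system.

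The libraries held 29926239 to 41335957 counts. Values are given in CPM, counts per 1000000 counts of a library after TMM scaling of library sizes, and group means are given ± SD over 4 libraries. Mitochondrial ribosomal RNA took 7.5% of counts in control 2 and 0.578% to 2.26% in the other 7 libraries. By Xist and 4 Y-linked genes, control 2, control 3, Fra-2 1 and Fra-2 3 were female and the other 4 libraries were male. Control 1 still had 8.54 CPM of Xist, against 0.398 to 0.86 CPM in the other male libraries. Control 2 had 1.03 CPM of the Y-linked genes, against 0.0945 to 0.126 CPM in the other female libraries. The source of these counts was not tested. All 9 markers of alveolar myofibroblasts and smooth muscle were detected, with Acta2 the highest per kilobase, and their summed level was 16200 to 17800 CPM in the controls and 15800 to 18400 CPM in the Fra-2-labelled libraries. Markers of other cells summed to 60.2 to 227 CPM for 12 markers of lung epithelium, 53.7 to 90.5 CPM for 8 of endothelium, 77.0 to 119 CPM for 8 of leukocytes and 2.48 to 12.5 CPM for 5 of mesothelium. The 7 pericyte markers summed to 1220 to 1940 CPM. The highest gene per kilobase was Scgb1a1 among the epithelial markers (23.3 and 28.1 CPM on average in controls and Fra-2-labelled libraries), Cdh5 in endothelium (24.5 and 27.7), Lyz2 in leukocytes (42.7 and 51.7), Krt19 in mesothelium (1.40 and 1.13) and Rgs5 in pericytes. Each of these lists had counts for all of its genes in at least 1 library.

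Fosl2, which encodes Fra-2, did not separate the groups, and whether the transgene would be counted at it is not stated in the labels. It measured 105, 117, 141 and 119 CPM in control 1 to control 4 and 166, 134, 126 and 104 CPM in Fra-2 1 to Fra-2 4, where the lowest value of all stood in a library labelled transgenic. The log2 fold change was 0.14 ± 0.136 (SE, adjusted p = 0.888 in edgeR), with a two-sided exact permutation p of 0.457 where 0.0286 is the smallest that 4 against 4 can give. With this and the word control in their source field, the data do not settle whether these libraries carry more Fra-2. The groups are therefore called by their labels throughout, and every direction is read from the Fra-2-labelled group relative to the control group.

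Over all 10 genes, 0 were higher and 0 were lower past the threshold, an edgeR adjusted p under 0.05 over all 15422 genes tested. The same rule called 0.72% of all tested genes higher and 0.298% lower, 1.02% in all, so a count of 0 in 10 genes does not set them apart from the rest. At an unadjusted p under 0.05, 3 of the 10 were higher and 1 was lower, against 5.17% and 3.53% of all tested genes (8.71% in all). DESeq2 called 1 of the 10, upwards, and it called 1.7% of its tested genes higher. Without control 2, the library richest in mitochondrial ribosomal RNA, edgeR called 0 of the 10. Over all genes tested, that fit called 50 higher and 26 lower. In it Fgf18 kept a log2 fold change of 0.38 and Pdgfrb had 0.28. Fgf18 and Pdgfrb had all 4 Fra-2-labelled libraries above all 4 controls, and 0 of the 10 had them all below. Such a separation was seen upwards in 3.35% and downwards in 2.42% of all tested genes, 5.76% in all. The fitted log2 fold change was above 0 in 8 of the 10 genes, with a median of 0.264, against 47.8% of all tested genes and a median of -0.0123. These libraries were precise enough to limit the sizes. The 95% intervals of the fold change ran from 0.689 at the lowest bound to 1.75 at the highest, so 2-fold changes in either direction lay outside the interval of each gene. In bulk samples, fewer cells of a type and less RNA per cell cannot be told apart.

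**Figure D1:**
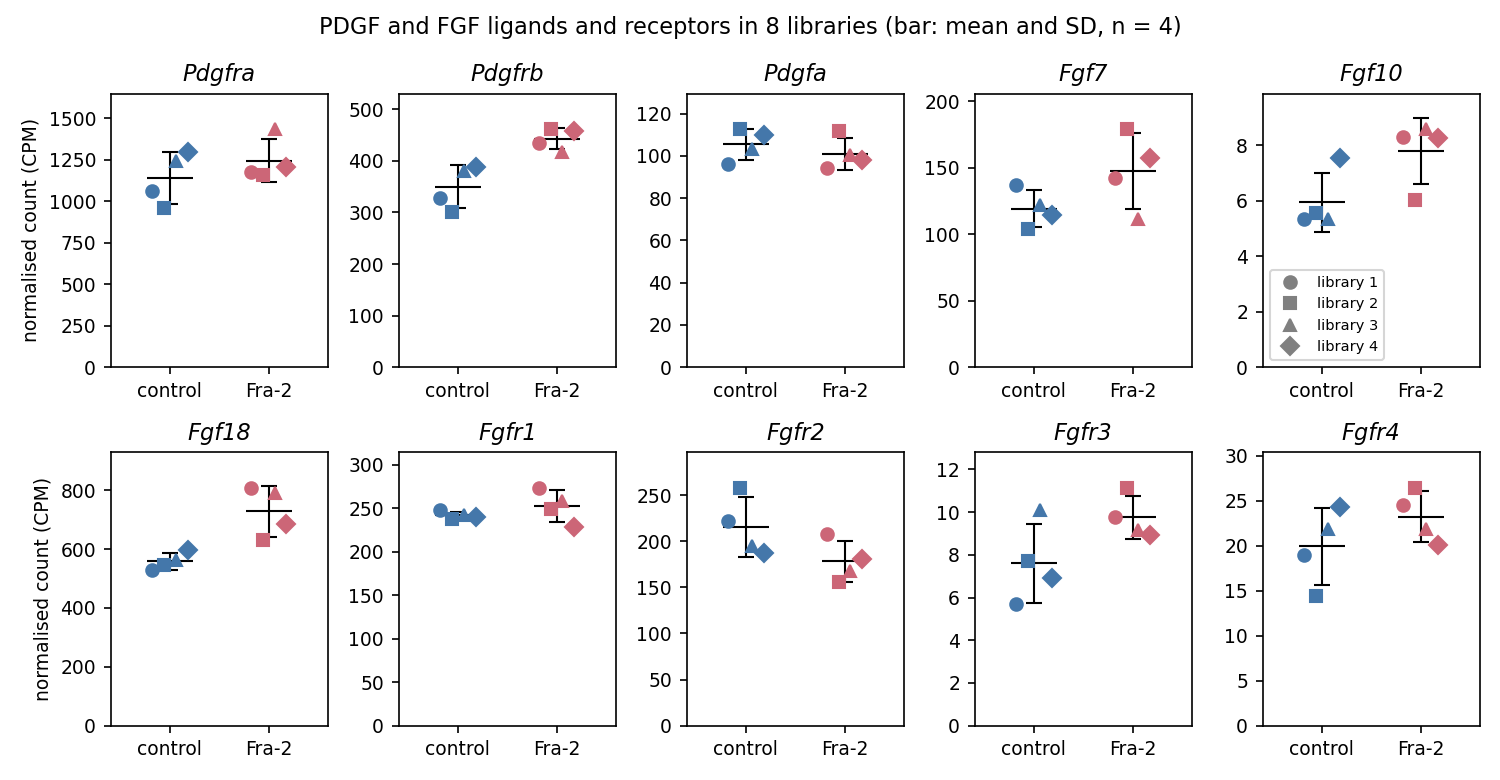
Normalised counts (CPM, vertical axis from 0) of the 10 genes in the 4 control libraries (blue) and the 4 Fra-2-labelled libraries (red), with marker shapes for library numbers and bars for the mean and SD. The 2 groups stand fully apart for Pdgfrb and Fgf18, and they overlap for the other 8 genes.

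**Figure D2:**
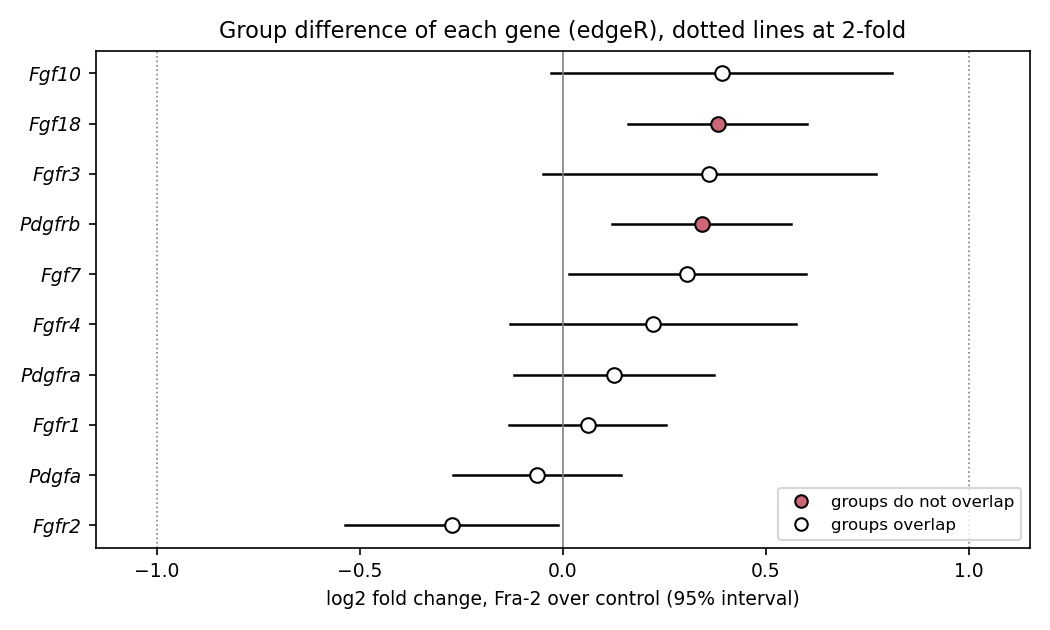
Fitted log2 fold changes of the 10 genes, Fra-2-labelled libraries over control libraries, with 95% intervals from edgeR and dotted lines at 2-fold. No interval reaches 2-fold, and filled points mark Pdgfrb and Fgf18, whose groups do not overlap.

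Pdgfra encodes the alpha receptor that marks myofibroblast precursors (ENSMUSG00000029231, chromosome 5, 75152292 to 75198215 in GRCm38). It measured 1063, 958, 1241 and 1294 CPM in control 1 to control 4 and 1177, 1159, 1433 and 1203 CPM in Fra-2 1 to Fra-2 4. Control 1 and control 2 were the low libraries and Fra-2 3 the high one, while the other 5 lay between 1159 and 1294 CPM. The difference was smaller than the spread within either group, with a log2 fold change of 0.13 ± 0.115 (SE, adjusted p = 0.874 in edgeR) and a 95% interval of the fold from 0.92 to 1.29. Leaving out single libraries moved the log2 fold change from 0.05 without Fra-2 3 to 0.19 without control 4.

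Pdgfrb encodes the beta receptor, which is typical of pericytes and other mesenchymal cells (ENSMUSG00000024620, chromosome 18, 61045150 to 61085061 in GRCm38). The control libraries measured 329, 301, 379.6 and 389 CPM. The Fra-2-labelled libraries measured 436, 462, 418 and 458 CPM, so that the lowest of them lay above the highest control. The group means were 349.6 ± 41.6 and 443 ± 20.5 CPM. The log2 fold change of 0.34 (SE 0.103) had an unadjusted p of 0.00496 and did not pass (edgeR adjusted p = 0.194), with a 95% interval of the fold from 1.09 to 1.48. In the female and in the male libraries taken alone the log2 fold change was 0.33 and 0.36. The 7 pericyte markers had no common direction, with 3 above 0 and 4 below, a median log2 fold change of -0.0902, and 0 past the threshold. Their summed level was 1580 to 1940 CPM in the controls and 1220 to 1560 CPM in the Fra-2-labelled libraries, a sum made up mostly by Rgs5, which averaged 1391 and 1025 CPM (log2 fold change -0.44, edgeR adjusted p = 0.092). For Rgs5 all 4 Fra-2-labelled libraries lay below all 4 controls, as for 2.42% of all tested genes. Kcnj8 (-0.44), Higd1b (-0.29) and Abcc9 (-0.09) also had log2 fold changes below 0. Notch3 (0.32), Cspg4 (0.17) and Cox4i2 (0.53) had log2 fold changes above 0. These other markers, named after their values were seen, did not pass. At an unadjusted p under 0.05 in edgeR, 1 of the 7 was higher and 2 were lower, against 5.17% and 3.53% of all tested genes. The part of pericytes in the Pdgfrb values was not tested.

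Per kilobase of exon, Pdgfra made up 63.5% to 64.5% of the summed PDGF receptor level in the 4 control libraries. It made up 59.6%, 57.9%, 65.2% and 59.0% in Fra-2 1 to Fra-2 4. The share was below every control in 3 of the 4 Fra-2-labelled libraries and above every control in Fra-2 3, so the groups did not separate. With the longest annotated transcript as the length, the Pdgfra share averaged 72.1% in the controls and 68.9% in the Fra-2-labelled libraries.

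Pdgfa encodes the A chain of PDGF, which the epithelium is known to supply to Pdgfra-bearing cells (ENSMUSG00000025856, chromosome 5, 138976014 to 138997370 in GRCm38). The myofibroblast libraries held 3190 to 4195 counts of it. It measured 96.3, 113, 103 and 110.0 CPM in the controls and 94.3, 112, 101 and 97.9 CPM in the Fra-2-labelled libraries. The ranges lay on top of each other, and the log2 fold change was -0.06 ± 0.0968 (SE, adjusted p = 0.937 in edgeR) with a 95% interval of the fold from 0.83 to 1.11.

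Fgf18 is the FGF that alveolar myofibroblasts themselves are known to make (ENSMUSG00000057967, chromosome 11, 33117430 to 33147400 in GRCm38). It had the widest gap between groups among the 10 genes relative to its error. The controls measured 529, 546, 563 and 598 CPM. Fra-2 1 to Fra-2 4 measured 809, 629.5, 789.6 and 684 CPM, all above the highest control. The group means were 559 ± 29.7 and 728 ± 85.5 CPM, and the log2 fold change of 0.38 (SE 0.103, unadjusted p = 0.00231) did not pass (edgeR adjusted p = 0.128). The 95% interval of the fold ran from 1.12 to 1.52.

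The call of Fgf18 turned on the fit. DESeq2 gave it an adjusted p of 0.0337, where it called 1.7% of its tested genes higher. Without Fra-2 2, the lowest of its group, the edgeR adjusted p was 0.0428, and without each of the other 7 libraries in turn it was 0.103 to 0.397. Both female Fra-2-labelled libraries (809 and 789.6 CPM) lay above both male ones. In the female libraries alone the log2 fold change was 0.53 (edgeR adjusted p = 0.0394), and in the male libraries alone it was 0.22 (edgeR adjusted p = 1.0). The difference between the sexes had an unadjusted p of 0.16 (edgeR adjusted p = 1.0), so a difference between the sexes is not shown.

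The stretches of 250 bases before the RefSeq start sites of Fgf18 and Fgf7 (RefSeq, GRCm38.p6) are shown because these are the 2 FGF ligand genes with the highest level per kilobase and because the study concerns an AP-1 factor. Both are written 5′ to 3′ on the gene's strand, with GC boxes (CCGCCC or GGGCGG on the strand shown) in capitals. Fgf18 lies on the minus strand (chr11:33147401-33147650) and Fgf7 on the plus strand (chr2:126034408-126034657).
Fgf18: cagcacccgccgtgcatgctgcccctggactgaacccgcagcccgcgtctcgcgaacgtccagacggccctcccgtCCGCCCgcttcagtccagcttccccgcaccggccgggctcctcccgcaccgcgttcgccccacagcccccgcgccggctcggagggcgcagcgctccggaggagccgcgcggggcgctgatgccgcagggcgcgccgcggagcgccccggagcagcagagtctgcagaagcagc
Fgf7: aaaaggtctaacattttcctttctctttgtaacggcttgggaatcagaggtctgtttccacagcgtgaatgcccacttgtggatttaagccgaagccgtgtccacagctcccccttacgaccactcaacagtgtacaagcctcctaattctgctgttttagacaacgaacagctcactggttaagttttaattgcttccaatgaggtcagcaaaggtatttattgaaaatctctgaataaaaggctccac
The Fgf18 stretch had 1 GC box and 77.2% G and C, against a median of 52.4% over all promoter stretches of this length. The Fgf7 stretch had 0 GC boxes and 43.6% G and C. The AP-1 letters TGANTCA, which read the same on both strands, were in neither stretch and in none of the 10 stretches of the 8 genes with an entry (Pdgfra, Pdgfa, Fgf7, Fgf10, Fgf18, Fgfr2, Fgfr3 and Fgfr4). They were in 6.75% of all 32851 stretches. The related letters TGACGTCA were likewise in 0 of the 10 and in 1.55% of all, and a GC box was in 7 of the 10 and in 32.7% of all. These counts say only which letters stand in these windows.

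Fgf7 encodes a growth factor for epithelial cells (ENSMUSG00000027208, chromosome 2, 126034658 to 126091185 in GRCm38). It had the widest relative spread of the 10 genes among the Fra-2-labelled libraries. The controls were at 137, 104, 122 and 114 CPM, and Fra-2 1 to Fra-2 4 were at 142, 179, 112 and 157 CPM. Fra-2 2 was the highest library and Fra-2 3 lay below 3 of the 4 controls. The log2 fold change was 0.31 (SE 0.136, unadjusted p = 0.0409) and did not pass (edgeR adjusted p = 0.534). Its 95% interval ran from 1.01-fold to 1.51-fold. Without Fra-2 2 the log2 fold change was 0.20 (edgeR adjusted p = 0.672), and without Fra-2 3 it was 0.42 (edgeR adjusted p = 0.272). The order of Fgf7 and Fgf18 differed between the Fra-2-labelled libraries, since Fra-2 2 was the highest of its group for Fgf7 and the lowest for Fgf18.

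Fgf10, which encodes the ligand that drives lung branching and is typical of lipofibroblast precursors (ENSMUSG00000021732, chromosome 13, 118669791 to 118792115 in GRCm38), was rare in these cells. Each library held 169 to 311 counts of it. The controls measured 5.32, 5.56, 5.34 and 7.52 CPM, and the Fra-2-labelled libraries measured 8.30, 6.02, 8.57 and 8.24 CPM. Control 4 stood above the other 3 controls and Fra-2 2 stood below the other 3 of its group, so the groups overlapped through those 2 libraries. The log2 fold change was 0.39 ± 0.196 (SE, adjusted p = 0.632 in edgeR), and the 95% interval of the fold was the widest of the 10 genes, from 0.981 to 1.75. The 8 markers of lipofibroblasts and matrix fibroblasts, cells known to make FGF10, lay in the same direction. Their summed level was 143 to 284 CPM in the controls and 314 to 432 CPM in the Fra-2-labelled libraries. Npnt led them per kilobase (110.2 and 193 CPM on average). On the log2 scale 8 of 8 were above 0, and 0 of 8 passed. At an unadjusted p under 0.05 in edgeR, 4 of the 8 were higher and 0 lower, against 5.17% and 3.53% of all tested genes. The groups lay fully apart upwards in 3 of the 8, against 3.35% of all tested genes. The 8 adventitial fibroblast markers summed to 1530 to 1850 and 1810 to 2220 CPM, and 2 of them passed upwards, Dpt (361 and 536 CPM on average, edgeR adjusted p = 0.049), the highest of the list per kilobase, and Dcn (140.0 and 212 CPM, edgeR adjusted p = 0.0323), named after its values were seen. All 8 adventitial markers were above 0 on the log2 scale. At the same unadjusted p in edgeR, 3 of them were higher and 0 lower, and the groups lay fully apart upwards in 3. Of all tested genes, 0.72% passed upwards and 47.8% were above 0. The part of such cells in the FGF and PDGF values was not tested.

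Fgfr1, the most widely used FGF receptor of mesenchymal cells (ENSMUSG00000031565, chromosome 8, 25513654 to 25575718 in GRCm38), had the narrowest spread of the 10 genes in the controls. They measured 248, 238, 242 and 239.7 CPM, a coefficient of variation of 1.82%. The Fra-2-labelled libraries measured 274, 249, 258 and 229 CPM, on both sides of the controls. The log2 fold change was 0.06 ± 0.0905 (SE, adjusted p = 0.936 in edgeR), and the 95% interval of the fold ran from 0.912 to 1.19.

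Fgfr2, the receptor for FGF7 and FGF10 in its epithelial splice form (ENSMUSG00000030849, chromosome 7), had the lowest fitted fold change of the 10 genes. The GENCODE gene spans 130162451 to 133123350 in GRCm38 through long annotated transcripts, and the RefSeq gene spans 130162451 to 130266808. The controls measured 222, 258, 195 and 187 CPM, and the Fra-2-labelled libraries measured 208, 156, 168 and 181 CPM. Of the latter, 3 lay below every control and Fra-2 1 lay among them. The log2 fold change of -0.27 (SE 0.123, unadjusted p = 0.0421) did not pass (edgeR adjusted p = 0.542), with a 95% interval of the fold from 0.689 to 0.992. Control 2 was the highest library, and without it the log2 fold change was -0.17 (edgeR adjusted p = 0.901). Without each of the other 7 libraries it was -0.21 to -0.35. Counts per gene do not separate the epithelial from the mesenchymal splice form.

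Fgfr3 (ENSMUSG00000054252, chromosome 5, 33721674 to 33737068 in GRCm38) and Fgfr4 (ENSMUSG00000005320, chromosome 13, 55152640 to 55168759 in GRCm38) encode the receptors that are jointly required for alveolar wall formation. Fgfr3 was rare, at 5.69, 7.70, 10.1 and 6.92 CPM in the controls and 9.77, 11.1, 9.17 and 8.93 CPM in the Fra-2-labelled libraries. Control 3 alone lay within the range of the other group. Its log2 fold change was 0.36 ± 0.191 (SE, adjusted p = 0.669 in edgeR). Leaving out single libraries moved it from 0.25 without control 1 to 0.53 without control 3, and it was 0.10 in the female and 0.67 in the male libraries alone, none of which passed. Fgfr4 measured 19.0, 14.5, 21.9 and 24.3 CPM in the controls and 24.5, 26.4, 21.8 and 20.1 CPM in the Fra-2-labelled libraries. These ranges overlapped broadly, with a log2 fold change of 0.22 ± 0.165 (SE, adjusted p = 0.816 in edgeR), which was 0.10 without control 2, its lowest library, and 0.33 without control 4, its highest control. The 95% intervals of the fold reached 1.71 for Fgfr3 and 1.49 for Fgfr4, so a moderate rise of either could not be told from none at this spread. Markers of lung epithelium, where Fgfr2, Fgfr3 and Fgfr4 are also known to be used, summed to 60.2 to 142 CPM in the controls and 118 to 227 CPM in the Fra-2-labelled libraries, and 0 of 11 tested passed. Their part in the receptor values was not tested.

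Within the FGF receptors, Fgfr1 and Fgfr2 held most of the summed level per kilobase of exon. Fgfr1 made up 47.1% ± 1.84 in the controls and 50.4% ± 1.68 in the Fra-2-labelled libraries. For Fgfr2 the shares were 40.0% ± 4.55 and 34.0% ± 2.84, for Fgfr4 10.9% ± 2.65 and 12.9% ± 1.48, and for Fgfr3 2.05% ± 0.527 and 2.70% ± 0.318 (SD, n = 4 each). The Fgfr1 share was 44.4% to 48.3% in the controls and 48.7% to 52.4% in the Fra-2-labelled libraries, so these 2 ranges lay next to each other without overlapping. The shares depended on the length used. With the longest annotated transcript as the length, Fgfr1 and Fgfr2 made up 46.1% and 46.4% in the controls. They made up 50.3% and 40.3% in the Fra-2-labelled libraries. Fgfr4 then made up 5.8% and 7.03% in the controls and the Fra-2-labelled libraries. Shares of one sum depend on each other and were not tested.

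Between genes, levels were compared per kilobase of the union of annotated exons, as a mean over the 8 libraries. Fgf18 was the highest at 542 CPM per kilobase, 4.56 times Pdgfra at 119, and this order held in 8 of 8 libraries. Pdgfrb followed at 72.4, below Pdgfra in 8 of 8 libraries. A middle set of Fgf7 (41.1), Pdgfa (33.1), Fgfr1 (25.0) and Fgfr2 (19.0 CPM per kilobase) stood closer together. Fgf7 was above Pdgfa in 6 of 8 libraries and Fgfr1 above Fgfr2 in 7 of 8, and in both pairs the ranges over the libraries overlapped. Fgfr4 followed at 6.09 CPM per kilobase, Fgf10 at 1.49 and Fgfr3 at 1.21, and the last pair kept its order in 6 of 8 libraries with overlapping ranges. Among the 3 FGF ligands, Fgf18 made up 90.4% to 94.8% of the summed level per kilobase in every library. With the longest annotated transcript as the length in place of the exon union, Pdgfa (50.2) and Fgf7 (49.9 CPM per kilobase) changed places, as did Fgfr3 (2.04) and Fgf10 (1.67).

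**Figure D3:**
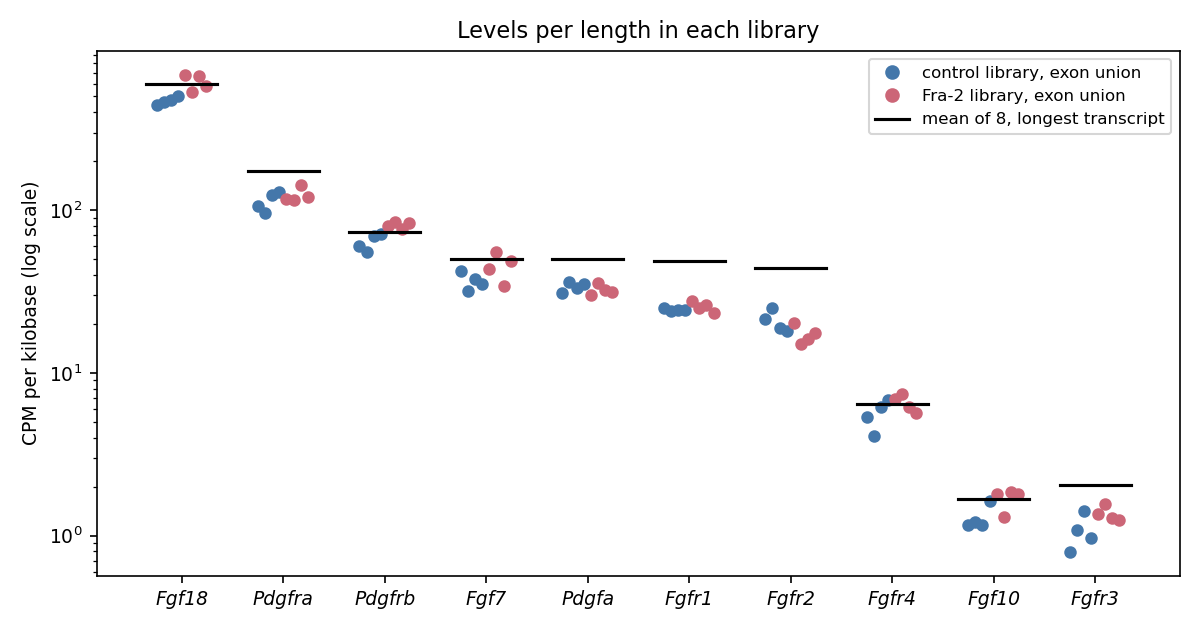
Level per kilobase of exon (log axis, CPM per kilobase) of the 10 genes in each control library (blue) and each library labelled Fra-2 transgenic (red), with black lines for the mean of the 8 libraries when the longest transcript is the length. Fgf18 lies above all others in every library, and Fgf10 and Fgfr3 lie lowest.

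The other genes of these pathways were read from 5 lists. Of the other 4 PDGF family genes, 0 rose, 0 fell and 4 did not pass, with a median log2 fold change of -0.0933. Pdgfrl, which encodes a receptor-like protein and was the most abundant of them per kilobase, averaged 77.7 CPM in the controls and 78.0 CPM in the Fra-2-labelled libraries. Of 20 other secreted FGFs, FGF-binding proteins and co-receptors, 13 were too low to test, among them 5 with 0 counts in all libraries. The 7 tested genes had 0 in either direction past the threshold and a median of 0.047, with 4 above 0 and 3 below. At an unadjusted p under 0.05 in edgeR, 2 of the 7 were higher and 0 lower, against 5.17% and 3.53% of all tested genes. These were Fgf1 (log2 fold change 0.48) and Fgf2 (0.49), named after their values were seen. The groups of Fgf1 lay fully apart, as upwards in 3.35% of all tested genes. Fgfrl1, a receptor without a kinase domain and the highest of this list per kilobase, averaged 33.5 and 34.6 CPM.

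Below the receptors, 0 of 21 signal transducers rose and 0 fell, the median log2 fold change was -0.000464, and the summed level was 2230 to 2350 CPM in the controls and 2280 to 2340 CPM in the Fra-2-labelled libraries. Mapk3, which encodes the kinase ERK1 and was the highest per kilobase, averaged 153 and 163 CPM. Of 16 MAPK feedback and target genes, which are commonly used as a readout of receptor activity, 0 rose and 0 fell in edgeR. Of these, 13 were above 0 on the log2 scale, against 47.8% of all tested genes, and the median was 0.148. At an unadjusted p under 0.05, 3 of the 16 were higher and 0 lower, where all tested genes had 5.17% higher and 3.53% lower. Spry1, a Sprouty feedback inhibitor and the highest of them per kilobase, averaged 219 and 262 CPM (log2 fold change 0.26, edgeR adjusted p = 0.521). Flrt3, which encodes an FGF receptor-binding membrane protein and was named after its values were seen, measured 14.1, 16.9, 20.9 and 21.9 CPM in the controls and 37.6, 26.7, 31.0 and 26.9 CPM in the Fra-2-labelled libraries. Its groups did not overlap, which held upwards for 1 of the 16 and for 3.35% of all tested genes. The log2 fold change of Flrt3 was 0.73 (SE 0.166), with an edgeR adjusted p of 0.0573. DESeq2 gave it an adjusted p of 0.00301, and edgeR gave 0.0403 without control 4 and 0.0428 without Fra-2 2, but 0.0677 to 0.223 without each of the other 6 libraries and 1.0 in the male libraries alone. It also passed in the female libraries alone (0.037), with total-count scaling (0.0465) and with no filter (0.0089).

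Sulf1 was the 1 gene of the 5 lists that rose. It encodes an extracellular enzyme that removes sulphate groups from heparan sulphate, which is known to weaken signalling by some FGFs. It measured 299, 274, 298 and 305 CPM in control 1 to control 4 and 397, 402, 444 and 418 CPM in Fra-2 1 to Fra-2 4, with no overlap. The group means were 294 ± 13.8 and 416 ± 21.2 CPM, and the log2 fold change was 0.50 ± 0.0893 (SE, adjusted p = 0.014 in edgeR). The call was lost without control 2 (edgeR adjusted p = 0.066), control 3 (0.051) or Fra-2 3 (0.0697), with log2 fold changes of 0.47, 0.51 and 0.47. In the male libraries alone the log2 fold change was 0.44 (edgeR adjusted p = 1.0). Sulf2, the other enzyme of this kind, named after its values were seen, measured 49.5 ± 13.7 and 78.8 ± 15.2 CPM with groups that did not overlap and did not pass (log2 fold change 0.67, edgeR adjusted p = 0.186, and 0.0365 in DESeq2). Of the 21 heparan sulphate genes, 1 rose, 0 fell and 20 did not pass, with 15 above 0 and a median of 0.182. Of all tested genes, 0.72% rose, 0.298% fell and 47.8% were above 0, with a median of -0.0123. At an unadjusted p under 0.05, 6 of the 21 were higher and 0 lower, against 5.17% and 3.53% of all tested genes. The groups lay fully apart upwards in 3 of the 21, against 3.35% of all tested genes. The highest per kilobase, the syndecan gene Sdc2, averaged 610.2 and 624 CPM.

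**Figure D4:**
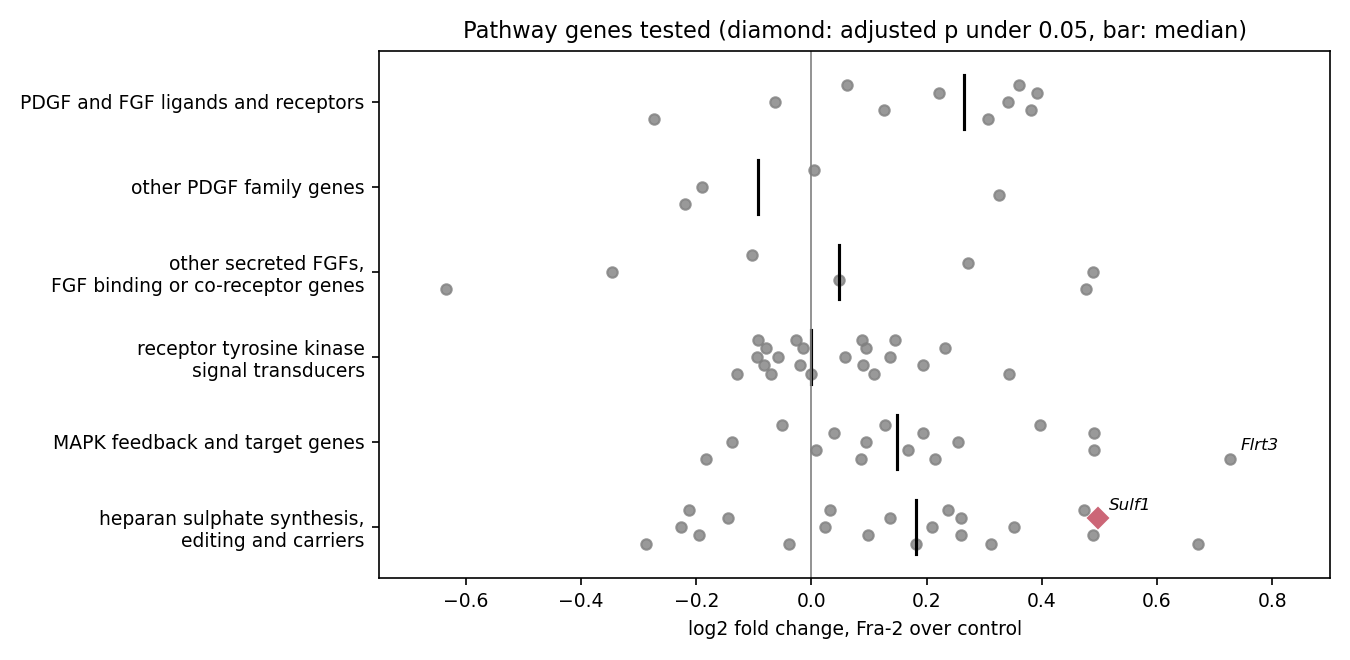
Fitted log2 fold changes, Fra-2-labelled libraries over control libraries, of the tested genes in 6 gene lists, with bars for the list medians and a diamond for the gene past an edgeR adjusted p of 0.05. Sulf1 is the 1 diamond at 0.50, and the signal transducers lie closest around 0.

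For the gene of each role with the highest level per kilobase, the genes whose log2 CPM followed it most closely over the 8 libraries were read out of 9724 others with a mean of at least 5 CPM. For Pdgfra they were Herpud1 (Pearson r = 0.96), Zfp521 (0.954) and Atg12 (0.952). For Pdgfa they were Vangl2 (0.975), Cep97 (0.948) and Hoxa7 (0.929). Fgf18 was followed most closely by Frem2 (0.982), Ephb2 (0.979) and Tshz3 (0.977), and Fgfr1 by Ccnyl1 (0.936), Smpd4 (0.933) and Xxylt1 (0.902). These are descriptions of 8 libraries without a test, in which high values are common: 1% of the genes ranked had an r of at least 0.893 with Fgf18 and 0.832 with Pdgfra.

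Some of the counts could be shared with neighbouring genes on the opposite strand, because the library protocol names no step that keeps the strand. The antisense gene 6330403L08Rik shares 813 exon bases with Pdgfa and held 403 to 528 counts per library against 3190 to 4195 for Pdgfa. Those of Fgf10 (Gm16263) and Fgfr1 (Gm16159) held at most 8 and 24 counts. Ctbp2 lies on the same strand as Fgfr2, so a step that keeps the strand would not separate the 314 exon bases they share. These bases belong to the long Fgfr2 transcripts, and Ctbp2 held 1191 to 1738 counts. On the opposite strand, G630022F23Rik shares 998 exon bases with Fgfr3, which held 230 to 350 counts. Likewise Gm42802 and Gm42803 share 456 and 166 exon bases with Pdgfra. None of these genes is among the identifiers counted, and their part in the Fgfr3 and Pdgfra counts was not tested. The pseudogene Fgfr3-ps held 0 counts in all 8 libraries.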

How the data were processed

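A single table of raw counts for mouse Ensembl genes was deposited, with 1 column per library named by its title. Per the submitters' processing notes the genome build was GRCh38, a human build, although the identifiers are mouse; the aligner and counting tool were not given in the sources used here. Per the labels' protocols, polyA RNA was selected from little total RNA and cDNA was amplified before a transposase-based library step. Symbols, positions and exon lengths were taken from GENCODE M21 (GRCm38), where 42548 of 43432 identifiers had a symbol.

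The deposited counts were analysed without change (R 4.3.3). Low genes were removed with filterByExpr (minimum count 10, minimum total 15), scaled by TMM and compared with edgeR 4.0.16 (robust quasi-likelihood F-test, two-sided, no covariate, Benjamini-Hochberg over 15422 genes, threshold 0.05). Each SE was obtained from the fold change and its F statistic. No set test was run. The procedure was tested on simulated data with planted changes, each larger than the fitted change of any member. That test does not show whether changes as small as those of the members would be called. The alternatives were RLE and total-count scaling, no filter, a stricter filter (1 CPM in 4 libraries), DESeq2 1.42.0, limma-voom (limma 3.58.1), replicate number as a block, a sex term and each library left out. Each sex alone was added after seeing the data. All 10 genes, Fosl2, the called genes and the highest gene per kilobase of each pathway list, the highest gene per kilobase of each marker list and the 3 most alike genes per role are named by rule; others are marked. Members and lists were chosen with earlier results of these data known. Within groups, pairs of libraries differed by 39.4 to 172 in chi-square per gene, far above sampling noise, and all 8 were kept.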

Additional observations from a re-analysis of the deposited data

Results flagged for a closer look

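In 3 groups of 4 libraries, 1 library stood far from the other 3, by a criterion that chance meets in about 1 group of 20. The groups screened were the control and the Fra-2-labelled group of each of the 10 genes and of Fosl2. For Pdgfra, Fra-2 3 was the highest of the Fra-2-labelled libraries at 1433 CPM. Control 4 was the highest control for Fgf10 at 7.52 CPM. Fra-2 2 was the lowest of the Fra-2-labelled libraries for Fgf10 at 6.02 CPM.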

How the results depend on the processing

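Of 180 member values under the alternatives, 178 kept their direction; Pdgfa (0.0235) and Fgfr1 (-0.0287) reversed in the male libraries alone. No member and no pathway gene fell past the threshold under any of the 18 alternatives. The count of higher members was 1, Fgf18, in DESeq2 (log2 fold change 0.39) and in the female libraries alone (0.53), and ran from 0 to 1 when single libraries were left out, with the 1 found without Fra-2 2. The count of higher pathway genes, 1 by edgeR, was 2 with total-count scaling, 2 with no filter, 2 with the replicate block, 3 in DESeq2 (Sulf1, Sulf2 and Flrt3), 3 in the female libraries alone, 0 in the male libraries alone, and 0 to 2 without single libraries. Over all genes, 111 higher and 46 lower became 269 and 104 in DESeq2, 142 and 37 in the female libraries alone and 3 and 0 in the male libraries alone. Without single libraries they ran from 50 to 153 and from 22 to 52. By level per kilobase, 6 of 10 genes kept their rank with the longest transcript as the length, and 6 of 10 in control 2 alone.

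With the replicate number as a block, 137 genes were higher and 53 lower, Fgf18 had an edgeR adjusted p of 0.134, Pdgfrb 0.178 and Sulf2 0.0246, and 0 members passed. The numbers share no stated origin, and deviations of same-numbered libraries correlated at 0.00177, 0.219, 0.0797 and 0.31 for numbers 1 to 4. Of the 4 controls, 3 correlated best with the Fra-2-labelled library of their own number, a description of the data and not of the design. Control 3 and Fra-2 3 were both female, and control 4 and Fra-2 4 were both male. In the remaining matched pair, control 2 was female and Fra-2 2 was male. The part of sex in these correlations was not tested. Each sex alone leaves 2 libraries a group. Depth was 169 counts or more of every member in each library, fewest for Fgf10, Fgfr3 and Fgfr4.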
